A study of Mus musculus with 37 samples.

Results

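The enzymes described here oxidise, conjugate and clear foreign and endogenous compounds. They were chosen by symbol alone: every gene of cytochrome P450 families Cyp1 to Cyp4, of the flavin monooxygenases (Fmo), of the glutathione S-transferases of the alpha, mu, pi and theta classes (Gsta, Gstm, Gstp, Gstt), of the sulfotransferases (Sult) and of the UDP-glucuronosyltransferases (Ugt1, Ugt2). Of 18193 genes with a probe set of their own on the array, 97 met this rule: 35 of Cyp2, 13 of Cyp4, 13 of Sult, 8 of Ugt2, 7 of Gstm, 5 of Cyp3, 4 of Fmo, 4 of Gstt, 3 of Cyp1, 3 of Gsta and 2 of Gstp. A further 8 probe sets were assigned to several of these genes at once, and the Ugt1 family was measured only by 3 of them.

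As background, Cyp and Fmo enzymes introduce an oxygen atom into their substrates, with electrons from NADPH. Ugt, Sult and Gst enzymes then attach glucuronic acid, sulfate or glutathione, which makes the product soluble enough to be exported into urine or bile. In the adult kidney these reactions are known chiefly from the proximal tubule, next to the transporters that secrete the conjugates. Some Cyp2 and Cyp4 enzymes also act on the body's own lipids, such as arachidonic acid.

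The series profiled 9 components of the developing kidney of wild-type CD-1 mouse embryos, a common outbred strain, with no treatment, on 37 one-colour expression arrays. At E11.5 they were the metanephric mesenchyme (8 arrays) and the ureteric bud (4 arrays); at E12.5 the renal vesicle (5 arrays), the first epithelial stage of the nephron; and at E15.5 the S-shaped body (4 arrays), renal corpuscle (4), early proximal tubule (2), ureteric tip (3), medullary collecting duct (3) and medullary interstitium (4). Per the labels, a sample pooled about 50 sections from 5 kidneys, captured by laser, and its RNA went through 2 rounds of amplification. The titles, however, name fine dissection or collagenase for 4 mesenchyme and all 4 ureteric bud arrays, for which the protocol field also gives laser capture; by title the bud has no laser-captured array. Sex was not known. In such samples, fewer cells of a type and less RNA per cell cannot be told apart.

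Levels are log2 values of quantile-normalized signal, and a level of 7.89 is the median over all probe sets and arrays. A gene was tested when at least 2 arrays exceeded that median, which 66 of the 97 genes did, among 15709 genes in all. A change was called at a Benjamini-Hochberg adjusted p under 0.05 in limma together with a difference of at least 1 on the log2 scale. Each sample is labelled as a pool, but nothing says that the pools came from separate litters, so p-values measure only the spread between these arrays.

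Several libraries stood apart. All 13 proximal tubule markers tested (Slc34a1, Slc5a2, Lrp2 and others) were called higher in the proximal tubule than in the other E15.5 components, as the label has it. Their summed signal was 615294 and 242987 in its replicates 1 and 2, and at most 20890 in the other E15.5 arrays apart from S-shaped body replicate 3, which had 118478. That S-shaped body library also had a hepatocyte marker sum of 32634 (777 to 1299 in the rest of its group), the highest podocyte marker sum of its group (218316 against 14519 to 29275), and the lowest renal vesicle marker sum (12327 against 64749 to 75478). Renal corpuscle replicate 4 had a podocyte sum of 16378 against 138888 to 516226, and a vesicle sum of 75134 against 8082 to 14183. Interstitium replicate 1 had a hepatocyte sum of 52252, against 2183 to 3231 in the other interstitium arrays. Of 5 hepatocyte markers tested out of 6 listed, 4 (Afp, Alb, Apoa2, Ttr) were called higher in the proximal tubule. The hepatocyte sum was 334375 in proximal tubule replicate 1 and 80762 in replicate 2, against 777 to 52252 in the other E15.5 arrays, 332 to 1657 in renal vesicles and 233 to 679 at E11.5. Alb stood at 13.54 and 8.95, and Ahsg, below the array median in replicate 2, at 9.57 and 6.48. The adrenal cortex sum was 10887 in replicate 1 and 1255 in replicate 2, against 772 to 2084 in the other E15.5 arrays, and 2 of the 5 adrenal markers (Cyp21a1, Hsd3b1) were called higher in the proximal tubule. Of other lists, 1 of 5 macrophage markers (Csf1r), 1 of 4 collecting duct markers (Aqp3) and 1 of 3 erythroid markers tested (Epb42) were called higher there. Called lower there were 1 other collecting duct marker (Elf5), 2 of 4 podocyte markers tested (Ptpro, Synpo) and 2 of 5 renal vesicle markers (Jag1, Wnt4). The macrophage sum was 8911 in one proximal tubule array and 34710 in the other, against 1284 to 26465 in the other E15.5 arrays. Liver and adrenal cortex express many of these enzymes, and the part of such RNA in the results below was not tested.

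The enzyme genes differed most between the early proximal tubule and everything else. In the F test over the 9 components, 40 of the 66 genes tested passed, against 48.6% of all genes tested. With no filter on level, 42 of the 97 passed, against 42.4% of all genes, so these genes varied between components about as often as others. The median range of component means, again with no filter, was 1.60 for the 97 and 1.65 for all genes. The component of the highest mean was the proximal tubule for 50 of the 97 (51.5%), against 25.1% of all genes on the array. In the contrast of the proximal tubule with the mean of the other 5 E15.5 components, 28 were called higher and 1 lower. The background was 9.13% called higher and 15.2% called in either direction. Without the filter, which matters here because 9 of the 66 passed it in fewer than 2 arrays outside the proximal tubule, 28 of all 97 were called higher against 8.39% of all genes, and 29 in either direction against 13.4%. Both proximal tubule arrays lay above all 18 other E15.5 arrays for 18 of the 97 genes, against 5.36% of all genes on the array.

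**Figure D1:**
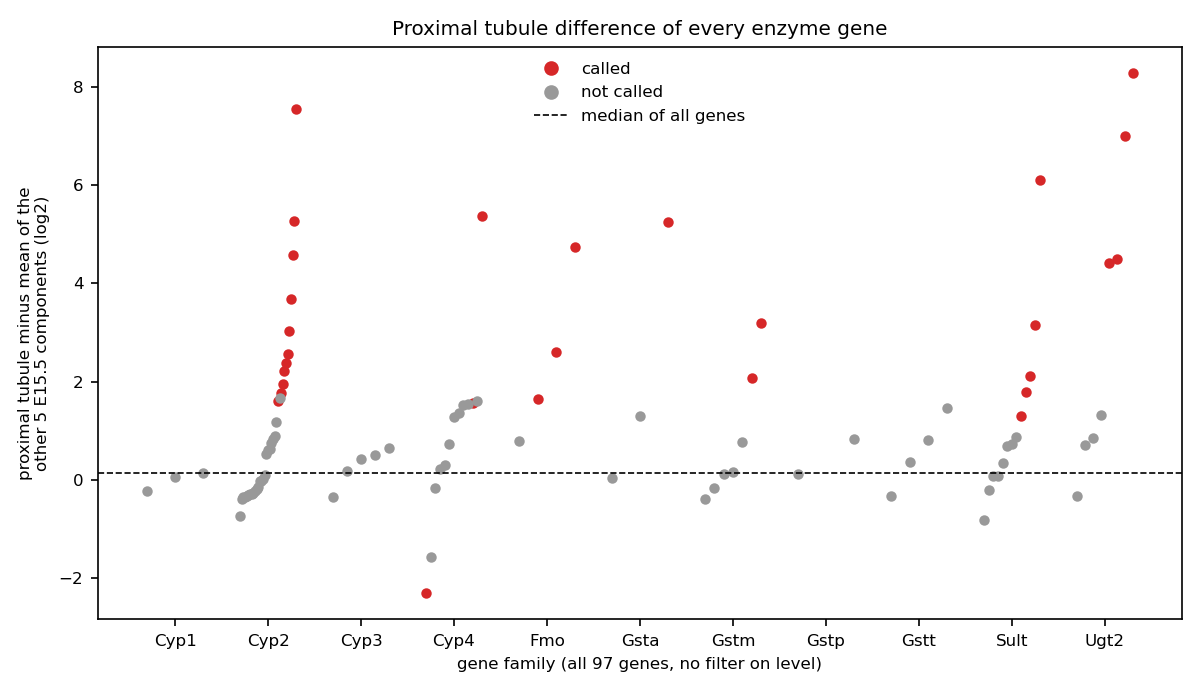
Log2 difference between the proximal tubule (2 arrays) and the mean of the other 5 E15.5 components (18 arrays) for each of the 97 genes, by family; red points were called, grey points were not, and the dashed line is the median of all genes on the array. Ugt2, Sult, Cyp2, Cyp4, Fmo and Gsta each hold a gene more than 4 above the other components, while no gene of Cyp1, Cyp3, Gstp or Gstt was called.

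By family, the genes called higher were 11 of 23 tested in Cyp2, 5 of 7 in Sult, 4 of 5 in Ugt2, 3 of 4 in Fmo, 2 of 10 in Cyp4, 2 of 6 in Gstm and 1 of 3 in Gsta. Of all genes tested, 9.13% were called higher. A gene could pass the filter through the 2 proximal tubule arrays alone, and 9 of the 66 passed in fewer than 2 other arrays. Over all genes of a family on the array, the shares are smaller for Cyp2, Sult, Ugt2, Cyp4 and Gstm. None was called among 1 tested gene of Cyp1, 1 of Cyp3, 2 of Gstp and 4 of Gstt. The median difference was 0.72 over all 97 genes and 0.14 over all genes on the array. The proximal tubule contrast rests on 2 arrays: without replicate 1, 17 were called higher against 4.62% of all genes, and without replicate 2, 25 against 7.33%.

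**Figure D2:**
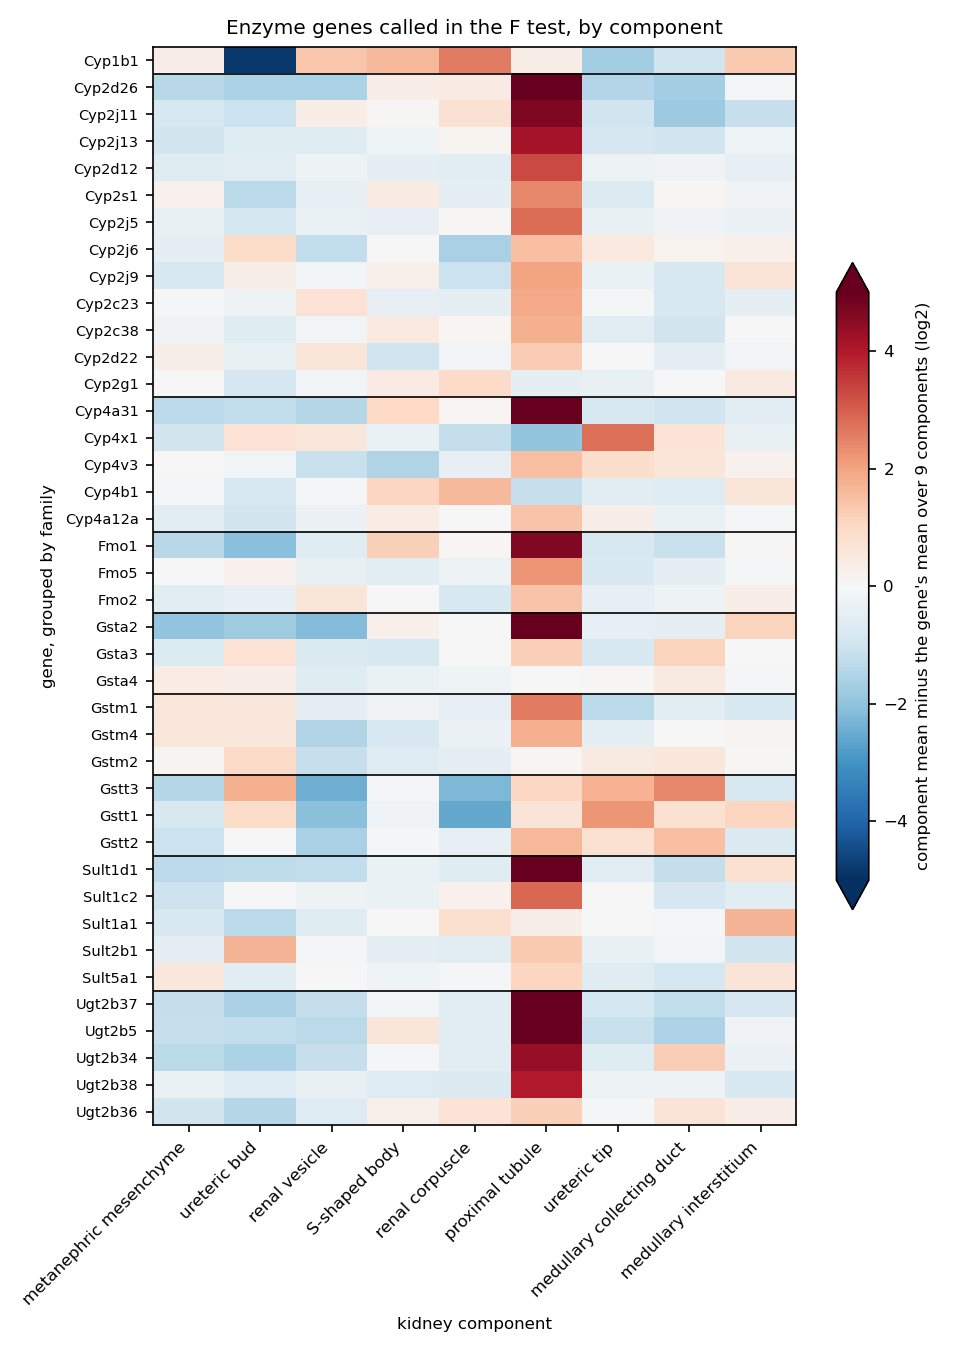
Component mean minus the gene's own mean over the 9 components (log2; colours saturate beyond 5) for the 40 genes called in the F test, by family. The proximal tubule column is the warmest for most genes, while Cyp1b1 is lowest in the ureteric bud, Gstt1 and Gstt3 are low in renal vesicles and corpuscles, and Cyp4x1 is highest in the ureteric tip.

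The Ugt2b genes, which attach glucuronic acid to steroids, bile acids and drugs, showed the sharpest difference. The mouse genes measured here lie in 1 cluster on chromosome 5, in the order Ugt2b34, Ugt2b1, Ugt2b35, Ugt2b36, Ugt2b5, Ugt2b37, Ugt2a3 and Ugt2b38, followed by Sult1b1, Sult1d1 and Sult1e1. Their start sites are shown because the genes are close copies of one another. The 150 bases from 120 before to 30 after each start (RefSeq, GRCm38.p6, written along the gene's strand) come from chr5:87140311-87140460, minus strand for Ugt2b5; chr5:87254759-87254908, minus strand for Ugt2b37; chr5:87424174-87424323, minus strand for Ugt2b38; chr5:87092526-87092675, minus strand for Ugt2b36; chr5:86906908-86907057, minus strand for Ugt2b34; chr5:86926474-86926623, minus strand for Ugt2b1; and chr5:87000740-87000889, plus strand for Ugt2b35. Capitals mark the letters GTTANANNTTAAC.
Ugt2b5: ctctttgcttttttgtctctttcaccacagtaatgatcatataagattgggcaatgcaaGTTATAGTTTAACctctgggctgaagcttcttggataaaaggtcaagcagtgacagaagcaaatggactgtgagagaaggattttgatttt
Ugt2b37: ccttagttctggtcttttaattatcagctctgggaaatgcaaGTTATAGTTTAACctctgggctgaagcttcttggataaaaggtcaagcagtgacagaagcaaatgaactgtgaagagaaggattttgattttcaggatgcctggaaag
Ugt2b38: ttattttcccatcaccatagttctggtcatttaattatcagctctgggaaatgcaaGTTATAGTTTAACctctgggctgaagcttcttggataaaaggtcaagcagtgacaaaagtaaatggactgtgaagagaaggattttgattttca
Ugt2b36: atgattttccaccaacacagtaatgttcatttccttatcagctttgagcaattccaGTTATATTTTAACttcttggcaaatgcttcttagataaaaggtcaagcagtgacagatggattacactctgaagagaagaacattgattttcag
Ugt2b34: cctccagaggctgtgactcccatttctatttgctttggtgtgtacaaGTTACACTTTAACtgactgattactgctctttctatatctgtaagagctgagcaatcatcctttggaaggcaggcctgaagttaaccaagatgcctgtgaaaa
Ugt2b1: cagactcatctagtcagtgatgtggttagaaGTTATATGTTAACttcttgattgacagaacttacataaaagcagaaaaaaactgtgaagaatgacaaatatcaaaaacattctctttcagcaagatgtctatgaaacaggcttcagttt
Ugt2b35: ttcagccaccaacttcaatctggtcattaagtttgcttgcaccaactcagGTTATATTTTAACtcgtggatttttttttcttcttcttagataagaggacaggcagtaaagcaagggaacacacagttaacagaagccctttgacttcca

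This pattern was written after the sequences were seen. It was taken from these 7 windows, with N where they differ, so each of the 7 had to match. It was then searched on both strands in the windows from 250 bases before to 50 after the start. It was found in 29 of 27025 genes with a window (0.107%), these 7 among them. No other of the 79 enzyme genes with a window held it. Ugt2b5, Ugt2b37 and Ugt2b38 share an unbroken run of 62 bases that contains the capitals and that no other gene's window holds. From the first base of that run to the end of the window, Ugt2b37 and Ugt2b38 were the same at 118 of 121 bases. The match is a description of these windows; Ugt2b1 and Ugt2b35 hold it too, and neither passed the filter on level.

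Ugt2b37 had the largest difference of all 97 genes. It stood at 14.84 and 14.05 in the proximal tubule arrays, and in the other 18 E15.5 arrays between 5.22 and 7.95, with a median of 5.75. The groups did not overlap, and the 17 E11.5 and E12.5 arrays spanned 5.24 to 6.93. The difference from the other E15.5 components was 8.28 ± 0.58 (SE, adjusted p = 4.97e-12). Ugt2b5 behaved alike, at 13.34 and 13.18, against other E15.5 arrays between 5.16 and 8.81, with a median of 5.37; its difference was 7.0 ± 0.67 (SE, adjusted p = 3.67e-09). Ugt2b38 stood at 11.40 and 9.91 in the proximal tubule and exceeded the array median in no other component, so it passed the filter through the proximal tubule arrays alone. Its other E15.5 values lay between 5.29 and 7.37, with a median of 6.12, and the difference was 4.50 ± 0.51 (SE, adjusted p = 6.45e-08). Fitted by limma with no filter on level, it was 4.50 (adjusted p = 3.79e-08). These 3 genes with the shared run were called with either proximal tubule array left out.

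Ugt2b34 and Ugt2b36 gave a less uniform picture. Ugt2b34 stood at 13.80 and 10.72 in the proximal tubule, 6.84, 6.88, 10.82 and 6.70 in S-shaped bodies and 6.20, 11.23 and 9.91 in collecting ducts. Its proximal tubule difference was 4.42 ± 1.00 (SE, adjusted p = 0.00186); without replicate 1 it was 2.88 (adjusted p = 0.186), and the call was lost. That array has the higher sums of proximal tubule, hepatocyte and adrenal cortex markers, and the part of each was not tested. For Ugt2b36 the proximal tubule values were 10.26 and 7.37, on both sides of the collecting duct mean of 8.24 ± 0.35 (SD, n = 3), and the difference was not called (0.85, adjusted p = 0.345). Ugt2b1, Ugt2b35 and Ugt2a3 did not pass the filter. Because these genes are near copies, signal of one at the probe set of another cannot be told apart here.

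The Ugt1 genes are read from 1 locus, where alternative first exons join shared later exons, and all 3 Ugt1 probe sets were assigned to 8 Ugt1a genes together. They were fitted with all 35801 probe sets that passed the filter. Their signal was already high in S-shaped bodies. Renal vesicles were taken at E12.5 and S-shaped bodies at E15.5, so component and embryonic day cannot be told apart between them. Probe set 1424783_a_at stood at 6.18, 10.82, 7.42, 6.08 and 9.31 in renal vesicles and at 14.04, 13.65, 15.03 and 13.20 in S-shaped bodies, with no overlap, a difference of 6.02 ± 0.70 (SE, adjusted p = 2.57e-07). The other probe sets, 1426260_a_at and 1426261_s_at, rose too, by 5.98 ± 1.00 (SE, adjusted p = 0.000135) at the former and 3.69 ± 0.64 (SE, adjusted p = 0.000231) at the latter; the background of that contrast was 5.32%. For all 3, that call was kept with any single array of the 4 nephron components left out, and without S-shaped body replicate 3 and renal corpuscle replicate 4 together. In the proximal tubule 1424783_a_at stood at 15.93 and 15.11. Against the S-shaped body it was not called there (1.54 ± 0.91, SE, adjusted p = 0.319), and 1426261_s_at was, at 2.57 ± 0.83 (SE, adjusted p = 0.0445), against 8.54% of probe sets, but not with either proximal tubule array left out, nor without S-shaped body replicate 1, 2 or 4 (adjusted p of 0.0742, 0.0876 and 0.1). Against the other 5 components the 3 probe sets were higher by 4.20 ± 0.78 (SE, adjusted p = 0.000215), 4.41 ± 1.11 (SE, adjusted p = 0.00534) and 5.44 ± 0.71 (SE, adjusted p = 9.06e-07), with 14.2% of probe sets called; without proximal tubule replicate 1 the call of 1426260_a_at was lost (adjusted p = 0.135).

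Renal corpuscles had less Ugt1a signal than S-shaped bodies. At 1424783_a_at their levels were 10.03, 11.36, 9.33 and 12.06, all below the 4 S-shaped body arrays. The 3 differences were -3.28 ± 0.74 (SE, adjusted p = 0.0395), -4.75 ± 1.05 (SE, adjusted p = 0.0373) and -3.25 ± 0.68 (SE, adjusted p = 0.0256), in a contrast that called 0.383% of probe sets. Without renal corpuscle replicate 3 none of the 3 was called (adjusted p of 0.127, 0.153 and 0.0979), nor without renal corpuscle replicate 1 or S-shaped body replicate 1. The calls of 1424783_a_at and 1426260_a_at were lost without any single S-shaped body array. Without both libraries that stood apart, all 3 were called (adjusted p of 0.0216, 0.0074 and 0.00194). No gene with a probe set of its own among the 66 was called by limma in this contrast, where 5 had an unadjusted p under 0.05 and 0.567% of all genes were called.

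**Figure D3:**
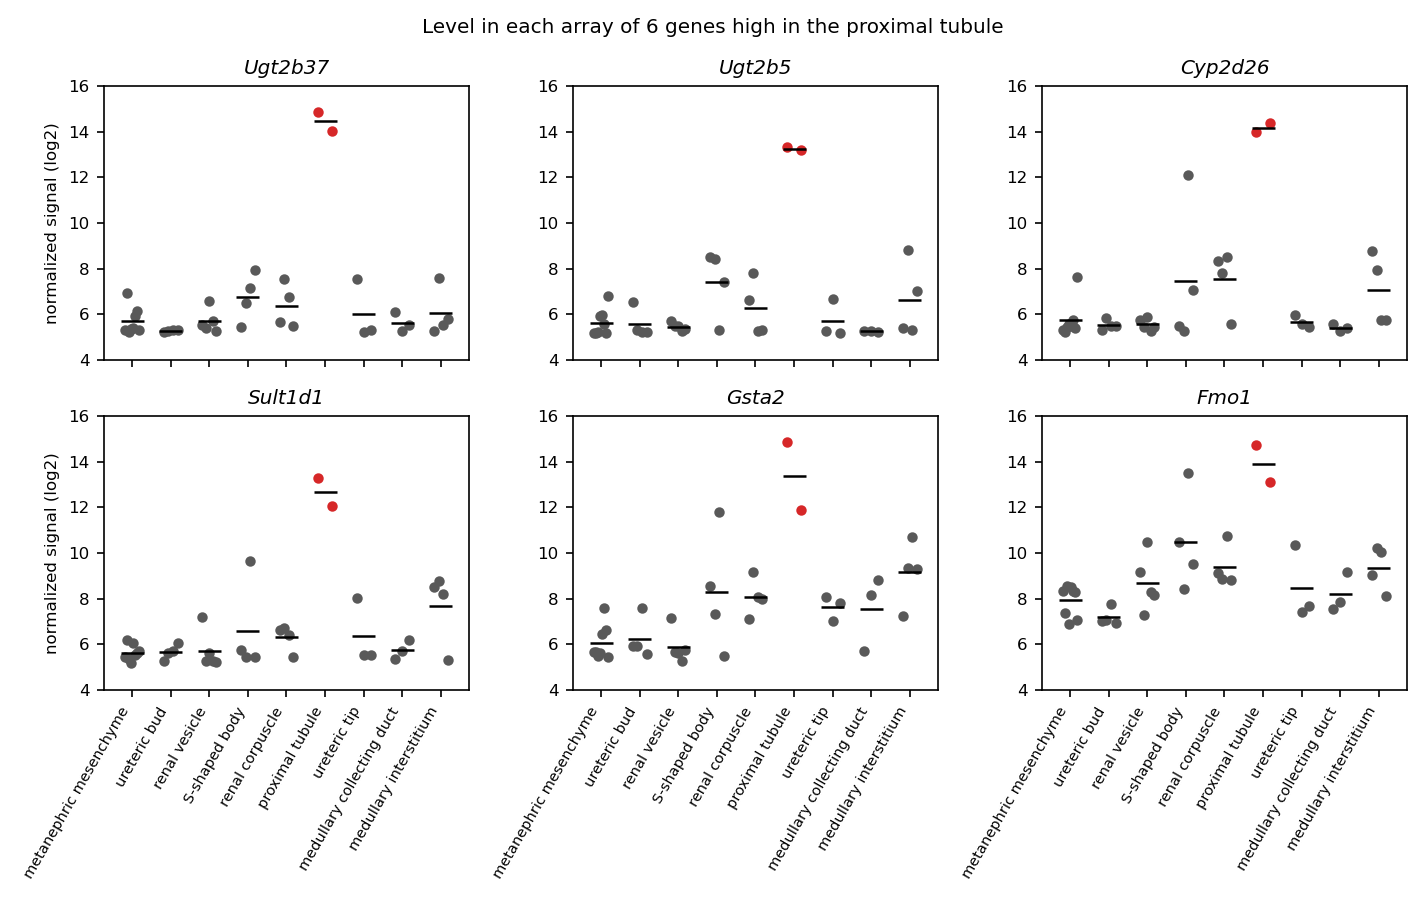
Normalized log2 signal in each array (points) and component means (bars) for Ugt2b37, Ugt2b5, Cyp2d26, Sult1d1, Gsta2 and Fmo1, with the proximal tubule in red. Both proximal tubule arrays lie at the top for Ugt2b37, Ugt2b5, Cyp2d26, Sult1d1 and Gsta2; for Fmo1 one S-shaped body array reaches 13.50, between the 2 proximal tubule values.

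Among the sulfotransferases, Sult1d1, which sulfates catecholamines and sits beside the Ugt2b cluster, had the largest proximal tubule difference. It stood at 13.27 and 12.05 in the proximal tubule and between 5.33 and 9.65, with a median of 5.98 in the other E15.5 arrays, with the highest of these in S-shaped body replicate 3. It was not confined there, with 8.51, 8.77, 8.19 and 5.33 in the interstitium. The difference was 6.11 ± 0.74 (SE, adjusted p = 2.63e-07); its other probe set gave 4.54. Sult1c2 reached 10.13 and 9.55 in the proximal tubule, above other E15.5 arrays between 5.60 and 8.54, with a median of 6.61, a difference of 3.16 ± 0.58 (SE, adjusted p = 0.000166). Both were called with either proximal tubule array left out. Sult1b1, next to Sult1d1 on the chromosome and known to act on thyroid hormones, stood at 10.14 and 6.65. Only replicate 1 was clear of the other E15.5 arrays, which lay between 5.36 and 9.07, with a median of 5.69, the highest of them in interstitium replicate 1, whose hepatocyte sum was high. Its call (2.12 ± 0.73, SE, adjusted p = 0.0433) was lost without replicate 1, where the difference was 0.37 (adjusted p = 0.847), and also without collecting duct replicate 1 or 2, tip replicate 2 or 3, S-shaped body replicate 4 or interstitium replicate 3.

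Sult2b1 and Sult1a1 followed other components. Sult2b1, which sulfates cholesterol and oxysterols, stood at 7.33, 9.08, 8.42 and 9.17 in the ureteric bud and at 7.48 and 8.68 in the proximal tubule; in mesenchyme it ranged from 5.86 to 7.26 with a median of 6.08. Its values in the bud were all above those in the mesenchyme, by 2.17 ± 0.37 (SE, adjusted p = 6.67e-05), and above those in the later ureteric tip, which were 6.25, 6.87 and 6.08. The tip minus bud difference was -2.10 ± 0.46 (SE, adjusted p = 0.0046). The proximal tubule difference of Sult2b1 was 1.79 ± 0.45 (SE, adjusted p = 0.00459), and it was lost without replicate 2 (1.19, adjusted p = 0.195). Sult1a1, a phenol sulfotransferase, was highest in the medullary interstitium, at 8.45, 9.51, 8.85 and 8.60, and lowest in the ureteric bud, at 6.86, 5.46, 5.67 and 5.29. The interstitium exceeded the other E15.5 components by 1.49 ± 0.42 (SE, adjusted p = 0.0269), where 6.09% of all genes were called; the call was lost without interstitium replicate 2, 3 or 4 or proximal tubule replicate 1. Sult5a1 was above the array median on all 37 arrays, with its highest means in the proximal tubule (10.02 and 10.58) and interstitium (9.87 ± 0.62). Its proximal tubule call (1.31 ± 0.42, SE, adjusted p = 0.0286) was lost without either proximal tubule array.

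The alpha-class transferase Gsta2, which conjugates glutathione to electrophiles such as lipid peroxidation products, was among the genes with the largest range. It stood at 14.87 and 11.90 in the proximal tubule, 8.57, 7.33, 11.80 and 5.47 in S-shaped bodies and 7.26, 9.34, 10.72 and 9.32 in the interstitium. The 17 E11.5 and E12.5 arrays lay between 5.28 and 7.61. The proximal tubule difference was 5.24 ± 0.91 (SE, adjusted p = 8.47e-05); replicate 1 was higher than replicate 2 by 2.97 on the log2 scale, and without replicate 1 the difference was 3.75 (adjusted p = 0.0487). Gsta3 passed the F test (adjusted p = 0.0105), with its highest means in the proximal tubule (8.35 ± 0.97) and collecting duct (8.25 ± 0.60). Gsta4 was high in every component, with means from 12.36 in renal vesicles to 13.40 in collecting ducts, and no contrast called it, although the F test did.

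In the mu class, Gstm1 was higher in the proximal tubule (12.20 and 11.61) than in all other E15.5 arrays, which lay between 7.77 and 10.41, with a median of 8.63. The difference was 3.19 ± 0.47 (SE, adjusted p = 5.88e-06), and it was called with either array left out. All 4 Gstm1 probe sets had a higher mean there than in the other components, by 1.94 to 3.19. Gstm1 was lowest in the ureteric tip, at 8.25, 7.77 and 7.98, below the ureteric bud at 9.91, 9.71, 10.25 and 9.85. That difference was -1.93 ± 0.48 (SE, adjusted p = 0.0134), a call lost without tip replicate 2. Gstm4 stood at 11.65 and 11.30 in the proximal tubule, 2.07 above the other components (adjusted p = 0.0282), but its call was lost without either proximal tubule array. Gstm1, Gstm2 and Gstm4 were each lower in renal vesicles than in mesenchyme, with vesicle minus mesenchyme differences of -1.03 ± 0.36 (SE, adjusted p = 0.0484), -1.29 ± 0.33 (SE, adjusted p = 0.00717) and -2.06 ± 0.51 (SE, adjusted p = 0.00527). In that contrast 4 of 5 interstitium markers were called lower too (median -2.39; sums of 9661 to 102669 in vesicles and 70380 to 142471 in mesenchyme). So were 2 of 5 endothelial markers (sums of 1290 to 5677 and 2419 to 13752) and 2 of 3 erythroid markers tested (33 to 354 and 271 to 4810). Of the nephron progenitor markers, 2 of 5 (Meox1, Six2) were called lower too, with sums of 4687 to 19697 and 13936 to 75513. The part of such cells in the Gstm differences was not tested. Gstm5 was above the array median on every array and was not called in the F test.

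The theta-class genes Gstt1 and Gstt3 had their highest means in the ureteric lineage. Gstt3 had a mean of 11.17 ± 0.32 (SD, n = 4) in the ureteric bud, with no array under 10.85, and stood between 6.33 and 8.99 in the mesenchyme, with a median of 8.08. The bud arrays were all above the mesenchyme arrays, by 3.18 ± 0.63 (SE, adjusted p = 0.000534). In the collecting duct it was 11.26, 12.34 and 11.83, the highest component mean, against 5.48, 8.94, 6.51, 7.18 and 6.65 in renal vesicles and 5.85, 8.50, 6.11 and 8.17 in corpuscles. Gstt1 was highest in the ureteric tip, at 11.30, 11.72 and 12.22, and lowest in corpuscles, at 5.86, 9.48, 6.49 and 6.06. Of the 4 corpuscle arrays, 3 lay below every other E15.5 array, and replicate 2 lay among them. The corpuscle was below the other E15.5 components, with differences of -3.45 ± 0.56 (SE, adjusted p = 0.000308) for Gstt1 and -3.11 ± 0.58 (SE, adjusted p = 0.00118) for Gstt3. Gstt3 also differed between S-shaped body and vesicle (2.41 ± 0.69, SE, adjusted p = 0.0349), a call lost without S-shaped body replicate 1 (11.58, 8.96, 8.17 and 8.72 in the 4 arrays) and without vesicle replicate 1, 3, 4 or 5. Gstt2 was highest in the proximal tubule and collecting duct (11.64 ± 0.31 and 11.48 ± 0.43) and lowest in vesicles (8.37 ± 0.95).

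Neither gene of the pi class was called. Gstp1, the class member known for its abundance in many tissues, was above the array median on all 37 arrays. Gstp3 was above it on 3 arrays, with component means from 6.11 in the interstitium to 7.29 in S-shaped bodies.

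In the Cyp2 family, Cyp2d26, of the drug-oxidising 2D subfamily, rose furthest. It stood at 13.99 and 14.37 in the proximal tubule, and the other E15.5 arrays lay between 5.28 and 12.09, with a median of 5.76. The highest of these was again S-shaped body replicate 3; the remaining S-shaped bodies had 5.50, 5.29 and 7.05. The difference was 7.54 ± 0.91 (SE, adjusted p = 2.31e-07). Cyp2d12 was smaller but very even, at 9.48 and 9.69 against other E15.5 arrays between 5.31 and 6.82, with a median of 5.83, with a difference of 3.69 ± 0.34 (SE, adjusted p = 3.4e-09). Like Ugt2b38, it exceeded the array median in no array outside the proximal tubule, so it passed the filter through the proximal tubule arrays alone. Fitted by limma with no filter on level, the Cyp2d12 difference in the proximal tubule was 3.69 (adjusted p = 2.36e-10). Cyp2d22 was higher there too (1.61 ± 0.48, SE, adjusted p = 0.0186), a call lost without either proximal tubule array; its other probe set gave 3.06.

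The 2J enzymes, which convert arachidonic acid to epoxides, moved in the same contrast. Cyp2j11 stood at 13.51 and 11.30 in the proximal tubule and 6.28, 5.95, 11.85 and 7.15 in S-shaped bodies, Cyp2j13 at 11.51 and 10.67 and 6.60, 6.05, 7.75 and 6.42. Their differences from the other components were 5.27 ± 0.84 (SE, adjusted p = 2.17e-05) and 4.58 ± 0.52 (SE, adjusted p = 9.38e-08). Both were called with either proximal tubule array left out. Cyp2j5, known as an abundant epoxygenase of mouse kidney, stood at 11.02 and 7.62, and renal corpuscle replicate 1, at 8.42, lay above the lower of them. Its difference was 3.03 ± 0.67 (SE, adjusted p = 0.00149) and 1.33 (adjusted p = 0.345) without replicate 1; its other probe set gave 5.88. For Cyp2j9 (2.22, adjusted p = 0.00775) the call was lost without replicate 1. Cyp2j6 was more widespread: its bud mean was 10.44 ± 0.46 and its corpuscle mean 7.90 ± 0.75, with a corpuscle minus other E15.5 components difference of -2.11 ± 0.54 (SE, adjusted p = 0.0147), a call lost without corpuscle replicate 1 or 4. Its proximal tubule differences, 0.62 and 1.66 at 2 probe sets, and those of Cyp4v3, 0.27 and 1.55, also varied between probe sets.

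Cyp2s1 was above the array median on 35 of 37 arrays and was highest in the proximal tubule, at 12.34 and 11.38, 2.57 ± 0.49 (SE, adjusted p = 0.0003) above the other components. In the ureteric bud it was lower than in mesenchyme, with a bud minus mesenchyme difference of -1.57 ± 0.41 (SE, adjusted p = 0.00883). Cyp2c23, Cyp2c38 and Cyp2e1 were called higher in the proximal tubule by 2.38, 1.95 and 1.77 (adjusted p of 0.0061, 0.0103 and 0.00362). Cyp2c23 stood at 10.30 and 6.71, with only replicate 1 clear of the other arrays, and its difference without that replicate was 0.58 (adjusted p = 0.668). The calls of Cyp2c38 without replicate 1 and of Cyp2e1, the ethanol-inducible P450, without replicate 2 were lost as well. The only Cyp3 gene tested, Cyp3a11, was not called in the F test (adjusted p = 0.637) or in any contrast.

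Cyp4 genes, which hydroxylate fatty acids, went in several directions. Cyp4a31 stood at 13.99 and 13.18 in the proximal tubule, 9.0, 8.44, 11.69 and 8.63 in S-shaped bodies and 6.64, 7.10, 7.76, 5.80 and 7.76 in vesicles. It was higher in the proximal tubule than in the other components by 5.37 ± 0.61 (SE, adjusted p = 7.85e-08) and in S-shaped bodies than in vesicles by 2.43 ± 0.55 (SE, adjusted p = 0.00658), but the second call was lost without S-shaped body replicate 3. Its other probe set gave 2.80 in the proximal tubule contrast. Cyp4v3 was lowest in S-shaped bodies, at 7.17, 7.62, 7.16 and 6.91; the proximal tubule, at 11.10 and 9.38, was above them by 3.02 ± 0.70 (SE, adjusted p = 0.00393), without replicate 1 not called. Cyp4a12a passed the F test with its highest mean in the proximal tubule (7.76 ± 0.24), and Cyp4f39 was called higher there (1.57, adjusted p = 0.0184), a call lost without replicate 2.

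Cyp4x1 and Cyp4b1 went against the proximal tubule pattern. Cyp4x1 stood at 10.34, 10.00 and 10.55 in the ureteric tip, above every other E15.5 array, and at 5.29 and 5.80 in the proximal tubule. The tip was higher than the other components by 3.40 ± 0.64 (SE, adjusted p = 0.00315), and the proximal tubule lower, with a difference of -2.30 ± 0.76 (SE, adjusted p = 0.0337), a call lost without either of its arrays. Cyp4x1 was the single enzyme gene called lower in the proximal tubule. Its 5 vesicle values ran from 5.30 to 11.70. Cyp4b1 was highest in corpuscles, at 10.68, 8.54, 9.42 and 9.52, above the other components by 1.78 ± 0.45 (SE, adjusted p = 0.0143). The call was lost without corpuscle replicate 1. S-shaped body replicate 3, with the highest podocyte, proximal tubule and hepatocyte sums of its group, had 10.78, and the part of such RNA was not tested.

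Of the 4 flavin monooxygenases, which oxidise nitrogen and sulfur atoms, 3 were called higher in the proximal tubule. Fmo1, the form known from adult mouse kidney, stood at 14.73 and 13.11 there, 10.50, 8.41, 13.50 and 9.52 in S-shaped bodies and 7.04, 7.05, 7.78 and 6.95 in the bud. Its proximal tubule difference was 4.74 ± 0.82 (SE, adjusted p = 7.17e-05), and it was kept with either proximal tubule array left out. Fmo5 stood at 10.34 and 7.60, a difference of 2.61 ± 0.61 (SE, adjusted p = 0.00243) that was 1.24 (adjusted p = 0.34) without replicate 1. Its 3 probe sets gave differences from 0.10 to 2.61, and the one used is the highest of them. For Fmo2 the 5 probe sets disagreed: the difference ranged from -0.05 to 4.42 between them, and it was 1.65 (adjusted p = 0.0201) at the one used, which has the highest mean; without replicate 1 it was 0.87 (adjusted p = 0.448), and the call was lost. In renal vesicles Fmo2 was above mesenchyme by 1.15 ± 0.38 (SE, adjusted p = 0.0368). Fmo4 was not called.

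The proximal tubule replicates differed from each other in these genes. The same counts over all genes called higher in the proximal tubule were not made, so those below cannot be read as particular to the enzymes. Of the 28 genes called higher there, 22 were higher in replicate 1, 12 of them by more than 1; 1 gene, Sult2b1, was higher by more than 1 in replicate 2, and 15 were within 1. Ugt2b5, Ugt2b37, Cyp2d26, Cyp2d12, Cyp4a31 and Gstm1 were among the even ones. The genes with the largest excess in replicate 1 were Cyp2c23, Sult1b1, Cyp2j5, Ugt2b34 and Gsta2, by 3.59, 3.49, 3.40, 3.08 and 2.97. Replicate 1 had the higher sums of proximal tubule, hepatocyte and adrenal cortex markers, and the part of each was not tested. Without replicate 1, the 17 genes still called were Cyp2d12, Cyp2d26, Cyp2e1, Cyp2j11, Cyp2j13, Cyp2s1, Cyp4a31, Cyp4f39, Fmo1, Gsta2, Gstm1, Sult1c2, Sult1d1, Sult2b1, Ugt2b37, Ugt2b38 and Ugt2b5.

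**Figure D4:**
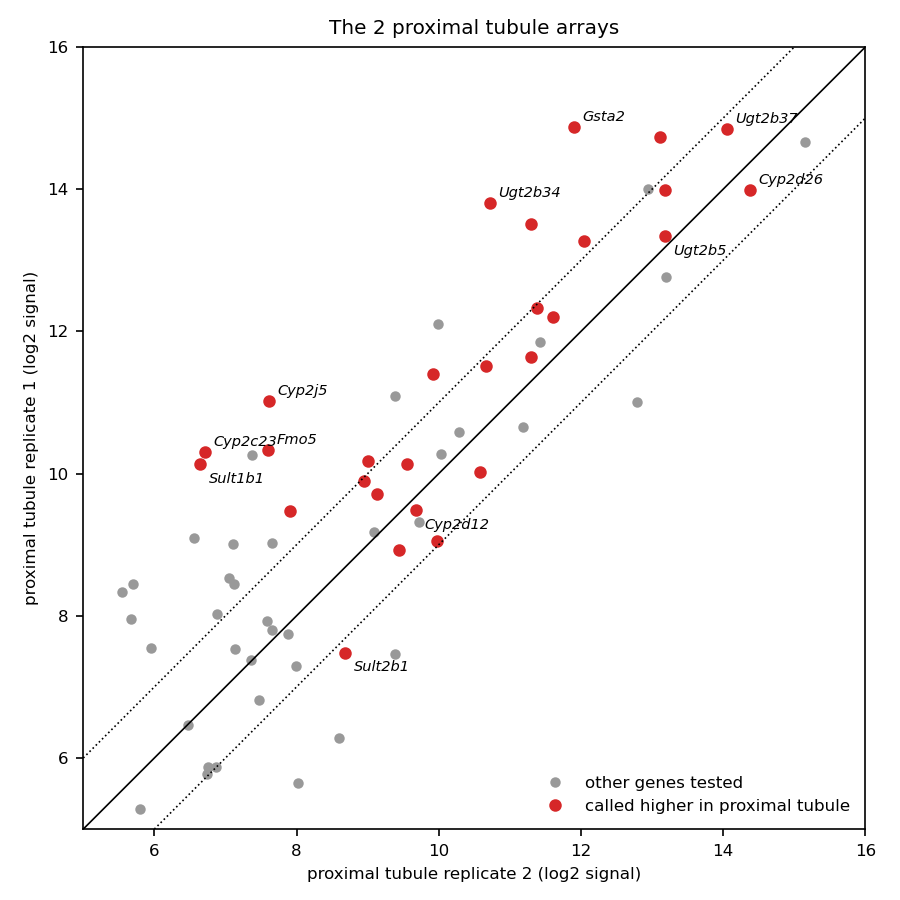
Log2 signal of the 66 genes tested in proximal tubule replicate 1 (vertical) and replicate 2 (horizontal); red points were called higher in the proximal tubule, the solid line marks equality and the dotted lines a difference of 1. Points such as Cyp2c23, Sult1b1, Cyp2j5 and Ugt2b34 lie far above the line, and Ugt2b5, Ugt2b37, Cyp2d26 and Cyp2d12 lie close to it.

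Compared with S-shaped bodies, the stage before it in the nephron, 24 of the 66 genes were higher in the proximal tubule and 1, Cyp4b1, was lower, against 5.61% of all genes called higher and 9.9% called in either direction. Without the filter, 5.17% of all 18193 genes were called higher and 8.74% in either direction. As 9 of the 66 passed the filter in fewer than 2 arrays outside the proximal tubule, 24 of 66 may overstate the excess. Fewer of the 66 were called with array weights and with only the compared components in the fit, as listed in the last section. Without replicate 1, 11 were higher and Cyp4b1 stayed lower, against 2.83% of all genes called higher. Without replicate 2, 24 were higher and none lower, against 5.6% of all genes called higher. The Cyp4b1 difference was then -1.42 (adjusted p = 0.326), and its call was also lost without S-shaped body replicate 1 or 3. Of the 28 genes called higher against the other components, 15 had their highest S-shaped body value in replicate 3, 7 of them by at least 2 over the other S-shaped bodies. This was not counted over all genes, so neither count can be read as particular to the enzymes. With S-shaped body replicate 3 and renal corpuscle replicate 4 left out, 25 genes were called in this contrast, as with all arrays, and 30 against the other E15.5 components. The share of all genes called in that setting was not counted, so these counts cannot be read as particular to the enzymes.

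**Figure D5:**
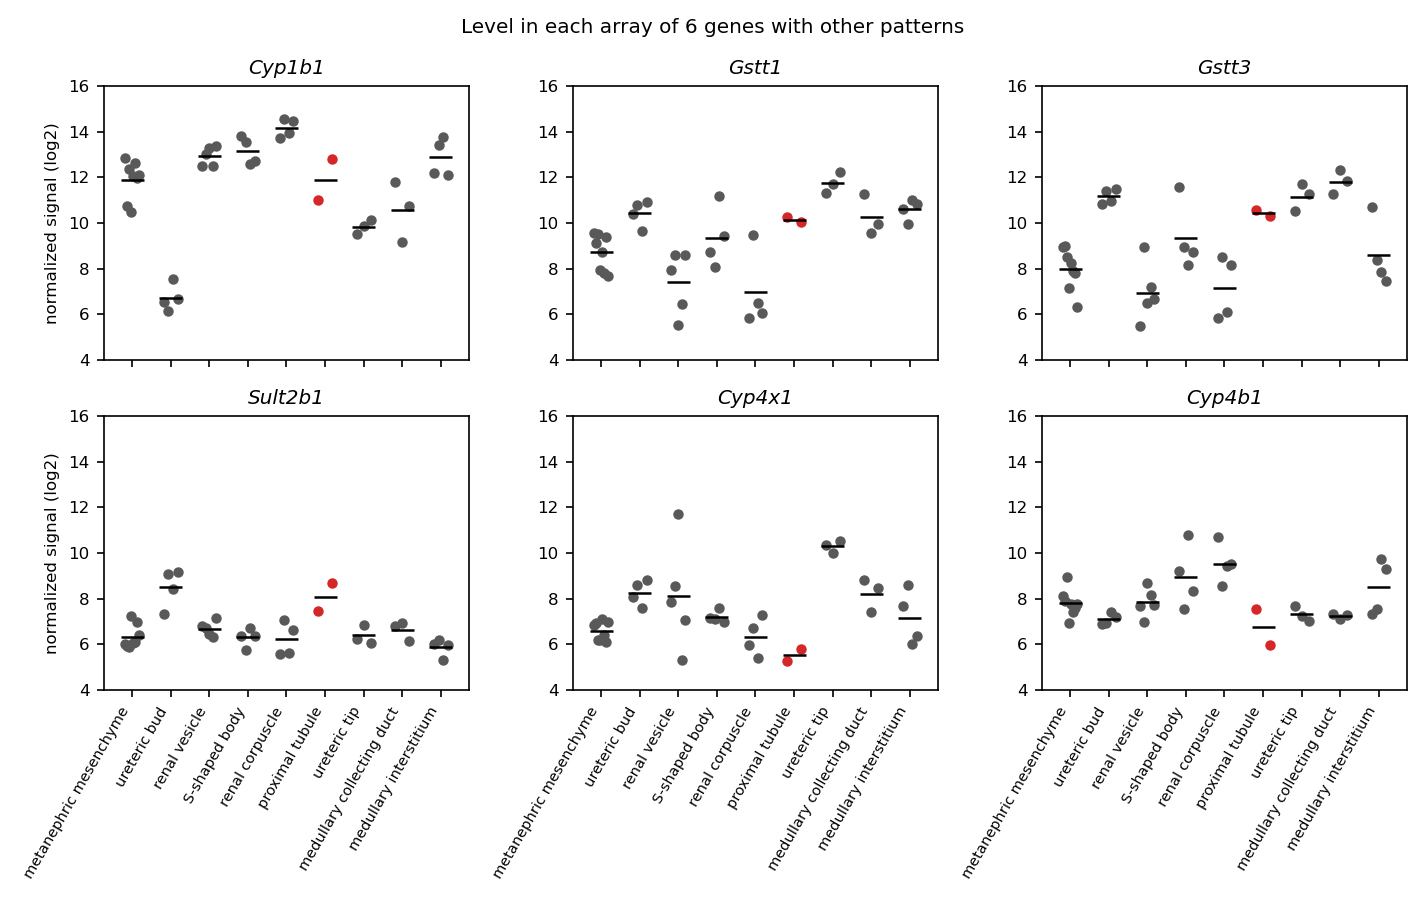
Normalized log2 signal in each array (points) and component means (bars) for Cyp1b1, Gstt1, Gstt3, Sult2b1, Cyp4x1 and Cyp4b1, with the proximal tubule in red. Cyp1b1 is at 6.14 to 7.57 in the ureteric bud and above 9 in every other array, Gstt1 and Gstt3 are high in the ureteric bud, tip and collecting duct, and Cyp4x1 has its highest mean in the tip.

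Cyp1b1, a P450 known to oxidise oestrogens and aromatic hydrocarbons, had the largest range of any gene outside the proximal tubule pattern. It stood at 6.52, 6.14, 7.57 and 6.67 in the ureteric bud. In the mesenchyme of the same day it ranged from 10.49 to 12.86, with a median of 12.08, and no bud array reached it. The bud minus mesenchyme difference was -5.18 ± 0.45 (SE, adjusted p = 2.26e-10). In the same contrast 4 of 5 interstitium markers (Col1a1, Col3a1, Foxd1, Pdgfra) were called lower, with a median difference of -5.35 over the list and summed signals of 1094 to 3824 in the bud and 70380 to 142471 in the mesenchyme. So were 3 of 5 endothelial markers (sums of 850 to 1724 and 2419 to 13752) and 3 of 5 macrophage markers (555 to 891 and 1918 to 13336). Of the nephron progenitor markers, 3 of 5 (Eya1, Meox1, Six2) were called lower too, with sums of 960 to 1590 and 13936 to 75513. From vesicle to S-shaped body to corpuscle the means were 12.94 ± 0.42 (SD, n = 5), 13.17 ± 0.62 (SD, n = 4) and 14.17 ± 0.39 (SD, n = 4), and neighbouring pairs in that order were not called different. Corpuscles exceeded the other E15.5 components by 2.50 ± 0.41 (SE, adjusted p = 0.000348). In the ureteric lineage the level stayed lower at E15.5, at 9.53, 9.88 and 10.12 in the tip and 11.78, 9.15 and 10.74 in the collecting duct. The tip was below the other E15.5 components, with a difference of -2.69 ± 0.46 (SE, adjusted p = 0.000979), and above the E11.5 bud by 3.12 ± 0.56 (SE, adjusted p = 0.000623). From bud to tip all 5 interstitium markers (those 4 and Dcn) were called higher as well, with a median difference of 4.32 and sums of 24011 to 101961 in the tip. The part of stromal, nephron progenitor, endothelial or macrophage RNA in these differences was not tested. The 3 Cyp1b1 probe sets differed in level, and 1432081_at did not show the low bud value (component mean 7.11, against 6.86 in mesenchyme). The 2 other Cyp1 genes, Cyp1a1 and Cyp1a2, did not pass the filter.

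Between the E11.5 tissues, Gstt3 and Sult2b1 were higher in the bud and Cyp1b1, Cyp2s1 and Sult5a1 lower, 5 of 66 against 8.14% of all genes. The bud minus mesenchyme difference of Sult5a1 was -1.11 ± 0.34 (SE, adjusted p = 0.0358), a call lost without any 1 of the 4 bud arrays or mesenchyme replicate 1, 3 or 8. The Cyp2s1 call was lost without bud replicate 1. Between renal vesicle and mesenchyme, 4 of 66 were called against 11.8%: Fmo2 higher, and Gstm1, Gstm2 and Gstm4 lower. Vesicles differ from both mesenchyme and S-shaped bodies in embryonic day too, which cannot be told apart from the component. The Fmo2 call was lost without renal vesicle replicate 1, 4 or 5 or mesenchyme replicate 2, 3 or 4. The Gstm1 call was lost without renal vesicle replicate 1, 2, 3 or 4 or any of mesenchyme replicates 4 to 8. Between S-shaped body and vesicle, 4 were called against 4.97%: Cyp4a31, Gstt3 and Ugt2b5 higher, and Cyp2d22 lower, a call lost without vesicle replicate 3 or 5 or S-shaped body replicate 1 or 2. Ugt2b5 stood at 8.50, 8.42, 5.31 and 7.43 in S-shaped bodies and at most 5.71 in vesicles, where its call (1.96 ± 0.60, SE, adjusted p = 0.0492) was lost without any single vesicle array and without S-shaped body replicate 1, 2 or 4; replicate 3, highest of its group for 15 of the 28 genes called in the proximal tubule, had the lowest value here.

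Ureteric tip and bud differ in component, embryonic day and, by title, how the tissue was taken, which cannot be told apart. They differed in 3 of 66 genes against 4.24%: Cyp1b1 higher and Gstm1 and Sult2b1 lower. Without quantile normalization, which moved the median of all genes in this contrast from -0.22 to 0.16, 6 genes were higher and none lower. Tip and collecting duct gave no call among the 66 in limma, where 2 had an unadjusted p under 0.05 and 0.344% of all genes were called. With array weights 5 were called. The share of all genes called was not counted under these 2 settings, so neither count can be read as particular to the enzymes. Against the other E15.5 components, 4 genes were called in the tip (1.57% of all genes), 6 in the collecting duct (1.85%), 6 in corpuscles (5.38%), 2 in the interstitium (6.09%) and 1, Cyp4v3, in S-shaped bodies (1.45%). Among these, Ugt2b37 in the tip, collecting duct, corpuscle and interstitium, Ugt2b5, Cyp2d26 and Cyp4a31 in the collecting duct, and Gstm1 in the tip, were called lower against a mean that holds the proximal tubule. Of these, the Ugt2b37 calls in corpuscle and tip were lost without any 1 of 9 and 8 arrays, proximal tubule replicate 1 among them in both; that in the interstitium was lost without interstitium replicate 3, and that of Gstm1 without any 1 of 6 arrays. The S-shaped body call of Cyp4v3 was lost without S-shaped body replicate 1 or 4.

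In the collecting duct Gstt3 was the only gene called higher, by 2.47 ± 0.65 (SE, adjusted p = 0.0357). Each of the 6 collecting duct calls was lost without replicate 2 and without replicate 3 of its 3 arrays; those of Cyp2d26, Cyp4a31 and Gstt3 were lost without replicate 1 too. The calls of Gstt3 and Cyp4a31 were also lost without ureteric tip replicate 1, and that of Cyp4a31 without proximal tubule replicate 1.

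The remaining enzyme genes gave little signal. The 31 genes that did not pass the filter, among them Cyp1a1, Cyp1a2, Cyp3a13, Cyp3a25, Sult1e1, Sult2a8, Ugt2a3 and Ugt2b1, had ranges of component means up to 1.93, and fitted without the filter none was called in the proximal tubule contrast. The array does not show that they were absent. The 26 genes that were tested but not called in the F test included Gstp1 and Gstm5, high in every component, and low genes such as Cyp2b9, Cyp2c29 and Sult4a1. Among the shared probe sets, 1424853_s_at, assigned to several Cyp4a genes, stood at 11.05 and 12.70 in the proximal tubule and was higher than in the other components by 5.23 ± 0.44 (SE, adjusted p = 7.35e-11).

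Genes that supply or follow these enzymes were read from lists of the pathway. Of 13 genes tested for cosubstrates and electron supply, 5 were called higher in the proximal tubule than in the other E15.5 components and none lower, where 9.13% of all genes were called higher. Gss and Gclm of glutathione synthesis differed by 3.16 ± 0.43 (SE, adjusted p = 1.57e-06) for the former and 2.53 ± 0.46 (SE, adjusted p = 0.000152) for the latter. Anpep and Dpep1, peptidases that break down glutathione conjugates, differed by 4.69 ± 0.54 (SE, adjusted p = 9.26e-08) for Anpep and 4.93 ± 0.50 (SE, adjusted p = 1.29e-08) for Dpep1, and Cyb5a, an electron donor of P450 enzymes, by 1.05 ± 0.33 (SE, adjusted p = 0.0272). The median over the list was 1.06, against 0.11 for all genes. Of 22 other conjugating and oxidising enzymes, 9 were called higher (background 9.13%) and none lower, led by Glyat, which conjugates glycine to acyl groups (5.25 ± 0.70, SE, adjusted p = 1.17e-06), Mgst2 (5.07 ± 0.56, SE, adjusted p = 4.68e-08) and Nat8, which acetylates cysteine conjugates (4.98 ± 0.79, SE, adjusted p = 2.21e-05); the list's median was 1.34.

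Of 8 efflux transporters, 4 were called higher, against the same 9.13% of all genes, and none lower: Slc47a1, a proton-coupled organic cation exporter (4.86 ± 0.90, SE, adjusted p = 0.000194), Abcc2, which exports glucuronide and glutathione conjugates (3.43 ± 0.50, SE, adjusted p = 4.9e-06), Abcc3 (2.00 ± 0.55, SE, adjusted p = 0.0101) and Abcg2 (1.98 ± 0.52, SE, adjusted p = 0.00686). Abcc3 was also called higher in the collecting duct. Of 10 transcriptional regulators, only Hnf4a, also among the proximal tubule markers (4.58 ± 0.91, SE, adjusted p = 0.000441), and the bile acid receptor Nr1h4 (4.76 ± 0.58, SE, adjusted p = 2.78e-07) were called higher in the proximal tubule, 2 of 10 against 9.13%; the list's median was 0.35. Ahr, the receptor that induces Cyp1 genes, was not called in that contrast. Letters resembling the HNF4 site (CAAAGTCCA, both strands) were in the windows of 6 of 79 enzyme genes, none of them called higher in the proximal tubule except Sult1b1, and in 0.555% of all genes' windows. The full palindromic HNF1 site was in 0 of 79, against 0.0111% of all genes' windows, and its part GTTAAT in 7 (8.86%), against 8.24%. The full site was searched as a fixed pattern that only 3 of 27025 genes hold. A count of 0 among 79 therefore cannot show that these windows lack similar sites. The pattern of the 7 Ugt2b windows is equally long (13 bases) and starts and ends with the same letters. Whether it acts as an HNF1 site was not tested. The dioxin response core GCGTG was in 19 of 79, against 35.2% of all genes, and TGACNNNGC, resembling the antioxidant response element, in 8, against 14%.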

How the data were processed

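The deposited values are array intensities per probe set, computed by the authors with GCOS per the submitters' processing notes and scaled to a trimmed mean of 1500, per the values. From these intensities, 34.62 (their 20th percentile) was added, log2 taken and the arrays quantile-normalized. The probe sets were named by GEO's platform annotation, updated through RefSeq: 34958 of 45101 had 1 gene, 932 several and 9211 none. Probe sets above the pooled median in at least 2 arrays were kept, and each gene was read from its brightest one (highest mean over the arrays). Limma 3.58.1 (R 4.3.3; trend and robust) fitted 1 mean per component on 37 arrays, with 28 residual degrees of freedom, 13 contrasts and an F test; p-values were adjusted over 15709 genes (Benjamini-Hochberg, two-sided). A fold change is a difference of means on this log2(signal + 34.62) scale, which understates changes of low genes.

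Array number limits the precision. On simulated data for the proximal tubule contrast with 15709 genes, changes of 1, 2, 3 and 4 were called in 10%, 60%, 84% and 94% of 50 genes each. The simulated noise was normal, independent between genes, and of the same spread in all components. Only those genes were changed, whereas 15.2% of all genes were called in this contrast of the data. The percentages therefore do not measure the sensitivity in these data. Genes named with values were, per family, up to 6 called in the F test with the largest range of component means (or, where none was called, the 1 with the largest range), any called in a contrast, and those with disagreeing probe sets; of each pathway list, up to 5 called genes. The genes and lists were chosen with earlier results of these data known. Marker sums use the deposited intensities. Alternatives were the offset, normalization, filter, probe set choice, array weights, arrays fitted, title date, title number, way of taking tissue, and each array left out. After seeing the data, leaving out S-shaped body replicate 3 with renal corpuscle replicate 4 and the fit over all probe sets past the filter (for the Ugt1 probe sets) were added. Promoter windows were 250 bases before to 50 after the start (79 of 97 genes matched by symbol, RefSeq GRCm38.p6; 18 not).

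Title numbers do not pair samples across components: over 105 same-number pairs the median correlation of deviations was 0.007. No pair of arrays correlated above 0.9792, so none was treated as a repeat.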

Additional observations from a re-analysis of the deposited data

Results flagged for a closer look

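In groups of 4 to 8 arrays, 15 of 204 combinations of gene and component, over 34 genes, had 1 array further from the rest than Dixon's 95% limit. Chance alone flags about 1 in 20. These are values of single arrays with no test of their source.

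In the S-shaped body, replicate 3 stood apart for Sult1d1 (9.65, against 5.46 to 5.77) and Ugt2b34 (10.82, against 6.70 to 6.88), and replicate 1 for Cyp2j5 (5.70, against 6.25 to 6.31). Replicate 3 also has the highest proximal tubule, podocyte and hepatocyte marker sums of its group (hepatocyte 32634, against 777 to 1299). In the ureteric bud, replicate 1 was high for Ugt2b34 (7.61, against 5.75 to 6.04) and Ugt2b5 (6.56, against 5.23 to 5.30), both below the array median. Bud replicate 3 was high for Fmo1 (7.78, against 6.95 to 7.05) and low for Fmo5 (6.46, against 7.11 to 7.24), and replicate 2 was low for Fmo2 (5.58, against 7.18 to 7.43).

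In the renal vesicle, replicate 1 was high for Gsta2 (7.14, against 5.28 to 5.74) and Sult1d1 (7.19, against 5.22 to 5.62), and replicate 5 for Gstm1 (9.81, against 8.51 to 8.88). Renal corpuscle replicate 3 was high for Fmo1 (10.76, against 8.82 to 9.13), and mesenchyme replicate 8 for Cyp2d26 (7.66, against 5.25 to 5.76). In the interstitium, replicate 4 was low for Sult1d1 (5.33, against 8.19 to 8.77) and replicate 1 was high for Sult5a1 (10.79, against 9.45 to 9.64). Interstitium replicate 1 has a hepatocyte sum of 52252, against 2183 to 3231 in the others.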

How the results depend on the processing

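No called difference of a named gene changed sign. Under other settings 961 of 1118 values kept their side of the threshold and 157 lost the call. With single arrays left out 1132 of 1279 kept it and 147 lost it. Differences that were not called are outside these counts. That of Ugt2b36 in the proximal tubule contrast changed sign, to -0.60, without proximal tubule replicate 1. Counts of genes called, out of 66, moved by over 1.5 times as follows, and the cause was not tested. The share of all genes called was not counted under these settings or those of the next paragraphs, except without a proximal tubule array. Whether a moved count is particular to the enzyme genes therefore cannot be told. A stricter filter, which tests fewer genes, gave 25 in place of 40 in the F test, 16 in place of 29 for the proximal tubule against the other E15.5 components and 14 in place of 25 against the S-shaped body. That filter needs 4 arrays above the 60th percentile, and the proximal tubule has 2 arrays. Of 89 differences of named genes, 55 were still tested under it, and 54 of these kept their call. Array weights gave 14 and 12 in those 2 contrasts, 12 in place of 5 for bud against mesenchyme, 2 in place of 4 for vesicle against mesenchyme, 10 in place of 3 for tip against bud and 5 in place of 0 for tip against collecting duct. Against the other E15.5 components they gave 2 in place of 1 for the S-shaped body, 3 in place of 6 for the corpuscle, 18 in place of 4 for the tip and 10 in place of 6 for the collecting duct. With only the compared components in the fit, counts were 10 for bud against mesenchyme, 0 in place of 4 for S-shaped body against vesicle, 5 for proximal tubule against S-shaped body and 9 for tip against bud. Against the other components that fit gave 0 for the S-shaped body, 0 for the collecting duct, 0 in place of 2 for the interstitium and 2 for the tip. Vesicle against mesenchyme gave 2 with double the log2 offset, 2 with the most variable probe set, 2 without probe sets of suffix x, s or a, and 1 with the way of obtaining tissue as a term; that term gave 1 for tip against bud. Without suffix x, s or a, the S-shaped body gave 0 and the interstitium 1 against the other components. Double the offset gave 8 for the tip. No quantile normalization gave 6 for tip against bud, 2 for the tip and 4 for the interstitium against the other components. With the title date as a random block (correlation 0.06), S-shaped body against vesicle gave 2.

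Leaving out S-shaped body replicate 3 and renal corpuscle replicate 4, a choice made after seeing the data, gave 2 for corpuscle against S-shaped body, and 3, 8 and 5 for the S-shaped body, tip and interstitium against the other components.

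With the title number as a replicate block, S-shaped body against vesicle gave 1, and the S-shaped body, tip and interstitium gave 2, 2 and 1 against the other components. The numbers do not pair the samples: correlations within a number ran from -0.229 to 0.22, and 10 of 35 arrays correlated best with one of their own number.

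With single arrays left out, counts ran from 34 to 42 in the F test, 17 to 31 for the proximal tubule against the other components, 12 to 25 against the S-shaped body, 3 to 5 for bud against mesenchyme, 2 to 5 for vesicle against mesenchyme, 1 to 4 for S-shaped body against vesicle, 0 to 1 for corpuscle against S-shaped body and 2 to 3 for tip against bud. Against the other components they ran from 0 to 3 for the S-shaped body, 3 to 12 for the corpuscle, 2 to 7 for the tip, 0 to 9 for the collecting duct and 0 to 6 for the interstitium. The number of arrays limits precision, above all the 2 of the proximal tubule.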
